A study of Mus musculus with 6 samples.

Results

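Gm26917, Rn7sk, Rmrp, Rpph1, Malat1, Neat1, Kcnq1ot1, Gas5 and Snhg1 are 9 noncoding RNA genes, of 52550 genes listed, that were measured in total RNA of sorted embryonic liver cells. The set was picked because Gm26917 and Rn7sk take large shares of TPM, and no separate reason is recorded for the others. The levels are therefore given as a description. The cells were GFP-positive cells sorted from livers of Sox9-GFP embryos of the CD-1 mouse strain, untreated, after depletion of haematopoietic cells. Each library was made from a pool of 15 livers, with 3 libraries a stage (E16.5, E18.5), named A, B and C within each. The sample labels give these stages as embryonic day 16 and embryonic day 18. The GFP marks cells that express the biliary transcription factor SOX9, and the sort does not separate them from cells that carry hepatoblast RNA. Since each library is a pool, the p-values measure the spread between pools.

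Noncoding RNAs of this kind fall into groups with different jobs. The short RNAs made by RNA polymerase III work inside protein complexes: Rn7sk encodes the 7SK RNA, which holds the transcription elongation factor P-TEFb inactive together with HEXIM proteins, Rpph1 encodes the RNA of RNase P, which trims the 5′ ends of transfer RNAs, and Rmrp encodes the RNA of RNase MRP, which cuts the ribosomal RNA precursor. The long RNAs made by RNA polymerase II stay largely in the nucleus, where Malat1 gathers in nuclear speckles, Neat1 builds paraspeckles and Kcnq1ot1 silences a cluster of imprinted genes in cis. Gas5 and Snhg1 carry small nucleolar RNAs in their introns, and their spliced transcripts are short-lived.

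The short members share sequence or bases with other genes, which decides what a read can be assigned to, so the parts that carry the difference are printed. In the vM21 release of GENCODE on GRCm38, Rn7sk is a single exon of 331 bases at chr9:78175303-78175633 on the minus strand. Gm24447, annotated as a miscellaneous RNA of 338 bases on chromosome 15, is identical to it from base 1 to base 241. The lines below leave out the first 200 bases of each RNA (chr9:78175303-78175433, minus strand, and chr15:93234563-93234700, plus strand), and the capitals mark the bases after the identical stretch.
Rn7sk: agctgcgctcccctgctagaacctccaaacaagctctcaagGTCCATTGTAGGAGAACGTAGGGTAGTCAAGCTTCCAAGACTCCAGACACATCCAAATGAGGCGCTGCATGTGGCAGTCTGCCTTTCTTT
Gm24447: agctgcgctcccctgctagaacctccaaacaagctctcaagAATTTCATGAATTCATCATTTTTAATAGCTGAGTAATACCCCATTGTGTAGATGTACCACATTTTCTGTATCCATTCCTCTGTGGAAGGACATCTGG

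With 90 bases of its own against this copy, Rn7sk aligned to transcripts of 202 other genes in the annotation, most of them copies of 7SK. Its reads cannot be separated from those of the copies with certainty, and both rows are given below.

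Rmrp is a single exon of 271 bases at chr4:43492788-43493058 on the minus strand. Bases 36 to 159, 45.8% of the RNA, also lie in an exon of the protein-coding gene Ccdc107 on the opposite strand, and the 147 bases in capitals do not. In vM21 another gene entry of the same name covers all 271 bases on the same strand, and it is not a row of the table used here.
Rmrp: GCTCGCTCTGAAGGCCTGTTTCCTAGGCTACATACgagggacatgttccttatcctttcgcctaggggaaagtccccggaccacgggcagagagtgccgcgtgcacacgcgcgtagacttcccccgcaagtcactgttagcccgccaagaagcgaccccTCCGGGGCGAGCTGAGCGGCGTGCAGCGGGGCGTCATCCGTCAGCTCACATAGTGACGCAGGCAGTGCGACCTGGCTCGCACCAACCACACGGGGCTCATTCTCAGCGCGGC

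Rpph1 is a single exon of 319 bases at chr14:50807449-50807767 on the minus strand. Bases 36 to 268, 73.0% of the RNA, lie in an exon of Ccnb1ip1 on the same strand in vM21, whose version of Ccnb1ip1 is not the one in the deposited table. The first 60 bases (chr14:50807708-50807767) and the bases from 250 on (chr14:50807449-50807518) show both edges, with the 86 bases outside Ccnb1ip1 in capitals.
Rpph1, first bases: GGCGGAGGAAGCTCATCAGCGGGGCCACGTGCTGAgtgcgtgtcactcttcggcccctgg
Rpph1, last bases: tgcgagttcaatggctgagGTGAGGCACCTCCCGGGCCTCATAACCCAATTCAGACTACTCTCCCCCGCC

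Genes whose bases all belong to another gene as well were mostly at 0. Of 440 genes whose exons were wholly covered by exons of the opposite strand, 97.3% were at 0 in all 6 libraries, against 17.9% of 40973 genes that share no exon base. Whether reads on the shared bases of Rmrp and Rpph1 were counted was not tested. If they were not, the values of both RNAs would rest on the capitals above, while TPM divides by the whole exon length. TPM is a read count divided by exon length and scaled to a fixed sum in each library, so it can be compared between genes per length.

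Gm26917 was the most abundant of the 9 RNAs and ranked 2 of all genes by mean TPM, behind Alb, which encodes albumin. It is annotated as a long intergenic RNA gene of 3329 bases at chr17:39843013-39846341 on the plus strand. It shares no exon base with another annotated gene, and no other annotated transcript aligned to it. Only 11 bases separate it from CT010467.1, a gene annotated as ribosomal RNA on the opposite strand. Whether the reads of Gm26917 came from ribosomal RNA was not tested. At E16.5 Gm26917 reached 61138, 52304 and 43871 TPM (A, B, C in order). At E18.5 it reached 51620, 54686 and 68452 TPM. The stages overlapped, and the libraries of one stage differed by up to 1.39-fold. The means were 52437 ± 8634 TPM at E16.5 against 58252 ± 8965 TPM at E18.5 (SD, n = 3 each).

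As a part of the whole library, Gm26917 took 4.39% to 6.11% of TPM at E16.5, then 5.16% to 6.85% at E18.5. The exact two-sided permutation test of the stages gave p = 0.5, where 3 libraries against 3 cannot go below 0.1. Multiplying TPM by exon length gave back whole read counts for most genes. Gm26917 held 1745182 reads in E16.5 A (6.65% of the recovered reads, 95% exact interval 6.64% to 6.66%, for counting error only) and 925426 reads in E18.5 C (7.06%, interval 7.05% to 7.07%). Its share was thus nearly the same whether or not length was taken into account.

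Other rows that carry ribosomal RNA sequence or lie beside it did not follow Gm26917 from library to library. CT010467.1 stood at 344, 312 and 710 TPM at E16.5, then at 453, 1777 and 422 TPM at E18.5, so the ratio of Gm26917 to it ran from 30.8 in E18.5 B to 178 in E16.5 A. Gm23935, a short row of 57 bases, was the most abundant tested gene of this list and was also highest in E18.5 B, at 3038 TPM against 960 to 1390 TPM in the other 5 libraries. Of the 8 such rows in the table, 3 were at 0 in all libraries and 5 were tested. Gm24187 rose (log2 fold change 1.28, adjusted p = 0.0478 in limma over all genes), with its highest value, 96.1 TPM, in E18.5 B, and it did not pass with median-of-ratios scaling (0.83, adjusted p = 0.171). Gm24187 also has only 57 exon bases, so its values rested on few reads. The other 4 tested rows did not pass.

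Rn7sk ranked 5 of all genes by mean TPM. It stood at 5159, 14149 and 6307 TPM (A, B, C in order) at E16.5. It stood at 9249, 18801 and 10110 TPM at E18.5. Replicate B was the highest and replicate A the lowest at both stages, and the stages overlapped. Because Rn7sk is short, it took 0.516% to 1.88% of TPM but only 0.0558% to 0.186% of the recovered reads, 13590 to 36529 reads a library.

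Together the 9 RNAs took 7.20%, 7.78% and 5.77% of TPM at E16.5, then 6.86%, 8.48% and 8.86% at E18.5. The mean share was 6.92% ± 1.04 at E16.5, then 8.07% ± 1.06 at E18.5 (SD, n = 3 each), and the stages overlapped. For the difference of 1.15 percentage points the exact two-sided permutation test gave p = 0.3, where the smallest possible p is 0.1. Of the recovered reads they held 6.14% to 7.81% at E16.5, then 6.75% to 8.70% at E18.5. The 7 RNAs other than Gm26917 and Rn7sk held 1.07% to 1.11% of the reads at E16.5, then 1.46% to 1.54% at E18.5, so on the read scale their stages did not overlap. Most of those reads were Malat1, with 0.812% to 0.882% of the reads at E16.5, then 1.13% to 1.17% at E18.5.

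**Figure D1:**
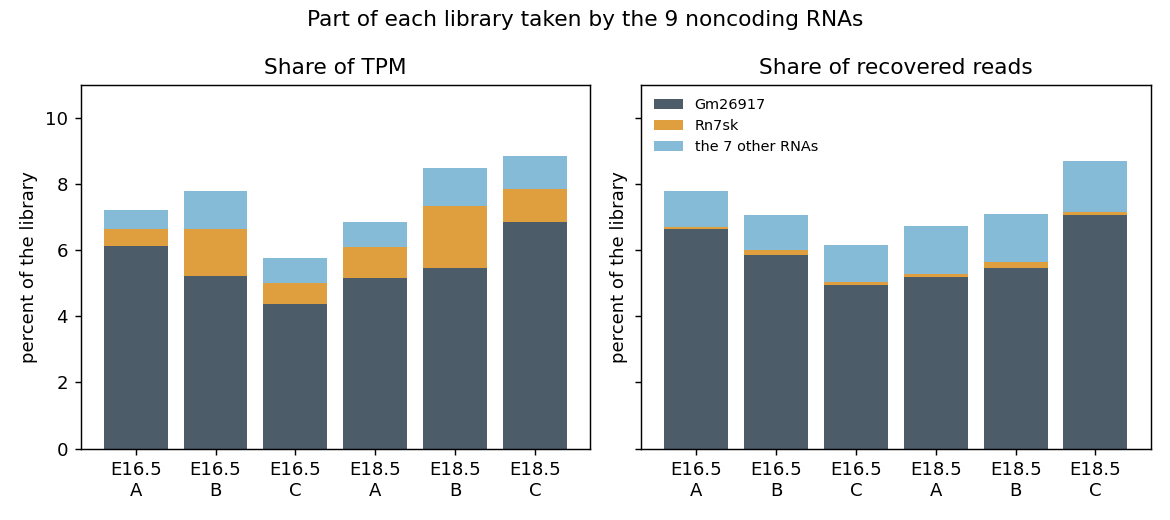
Stacked bars give the percent of each library taken by Gm26917, Rn7sk and the 7 other RNAs, on the left of TPM and on the right of recovered reads, for the 3 libraries of each stage. Gm26917 forms most of every bar on both scales, whereas Rn7sk is visible on the TPM scale (0.516% to 1.88%) and almost vanishes on the read scale (0.0558% to 0.186%).

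The RNAs of the 2 related ribonucleases varied even more between libraries of one stage than Rn7sk did. Rpph1 stood at 1595, 7592 and 3674 TPM (A, B, C in order) at E16.5, then at 1845, 5379 and 4097 TPM at E18.5. Rmrp stood at 38.3, 139 and 62.9 TPM at E16.5, then at 33.4, 128 and 59.97 TPM at E18.5. Both had the order A, C, B from lowest to highest at each stage, and the stages overlapped. Rmrp rested on 62 to 294 reads a library, few beside the 4026 to 18890 reads of Rpph1, and per length Rpph1 lay 41.6 to 68.3 times above it.

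Replicate B exceeded replicate A by 2.74-fold at E16.5, then 2.03-fold at E18.5 for Rn7sk, by 4.76-fold and 2.92-fold for Rpph1, and by 3.63-fold and 3.82-fold for Rmrp. All 3 of these polymerase III members, and none of the other 6 RNAs, had B at least 2-fold above A at both stages, a pattern that 2.11% of the 22452 tested genes had. The full order, with B highest and A lowest at both stages, was found in the same 3 RNAs and in 1.26% of tested genes. This pattern was noticed in the values and is given without a test. The letters are replicate names and no source says that a letter marks a shared batch.

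Other short structural RNAs had the same order. Rn7s2, an RNA of the signal recognition particle and the most abundant tested gene in the list of small structural RNAs, stood at 447, 1256 and 979 TPM at E16.5, then at 349, 917 and 804 TPM at E18.5. Its near copy Rn7s1 and the RNase P RNA-like gene Rprl3, which is 85.99% identical to Rpph1 over 257 bases, also had B more than 2-fold above A at both stages. Of the 11 tested genes in this list, 3 showed this difference and 3 showed the full order. Rprl3 and Rpph1 may share reads, and so may Rn7s1 and Rn7s2.

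The pattern was also counted by class of gene. Among genes averaging 10 TPM or more that were above 0 in all libraries, B was at least 2-fold above A at both stages in 9 of 43 small RNA genes with exons of 200 bases or more and in 6 of 326 shorter ones. It was found in 0 of 213 protein-coding genes with 200 to 1000 exon bases, in 1 of 9374 longer ones and in 0 of 124 long intergenic RNAs. Of the 9 genes, 7 are RNAs already named here, and the median ratio of B to A over the 43 genes was 1.04 at E16.5 against 1.39 at E18.5. These counts describe the same libraries in which the pattern was noticed.

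**Figure D2:**
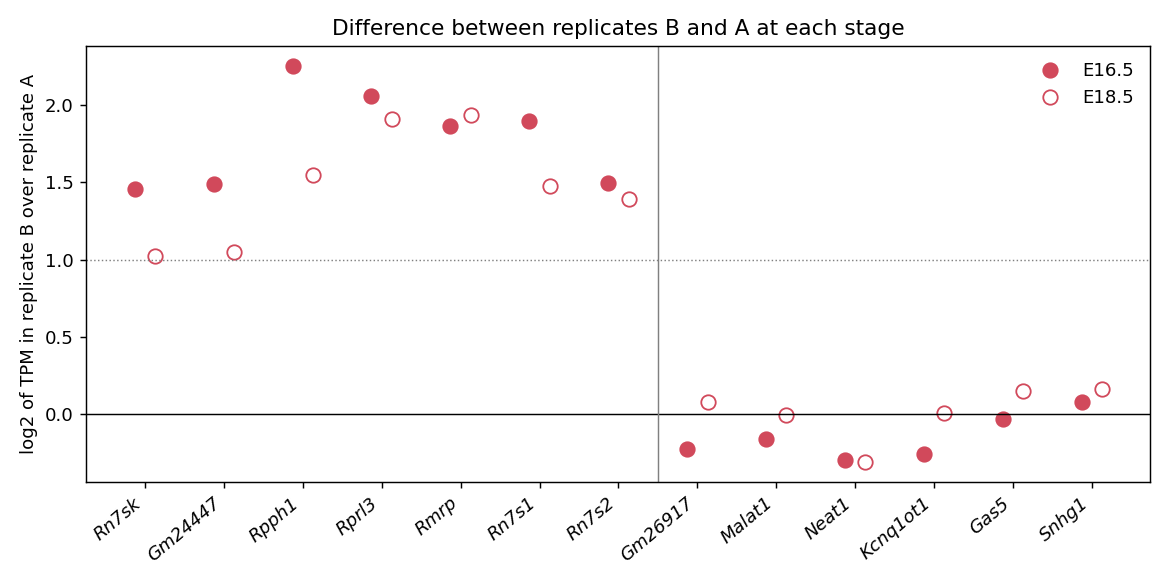
Points give the log2 ratio of TPM in replicate B to TPM in replicate A, filled for E16.5 and open for E18.5, with 7 short structural RNAs, chosen with their values seen, left of the vertical line and 6 longer RNAs right of it. The dotted line marks a 2-fold difference. The 7 plotted short RNAs lie above it at both stages (Rn7sk at 2.74-fold and 2.03-fold), unlike others that are not plotted, such as Rnu2-10 (0.440 and 0.937), and all 6 longer RNAs lie well below it.

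Rn7sk and its partial copy kept a nearly fixed ratio. Gm24447 stood at 1853, 5190 and 2319 TPM at E16.5, then at 3431, 7101 and 3526 TPM at E18.5. It thus ran at 0.349 to 0.378 of Rn7sk, and the ratio moved by no more than 1.08-fold over libraries in which Gm24447 itself ranged 3.83-fold. The ratio of Rpph1 to Rn7sk was less fixed, from 0.199 in E18.5 A to 0.583 in E16.5 C. Of 14372 other genes averaging 5 TPM or more and exons of at least 200 bases, Gm24447 had the pattern most like Rn7sk over the 6 libraries, with a mean absolute difference of 0.030 in centred log2(TPM + 1). The histone gene Hist4h4 (0.145) and the processed pseudogene Gm7525 (0.175) came next, at a much larger distance.

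Stage was then compared across all genes with limma on log2(TPM + 1), as E18.5 minus E16.5, over the 22452 genes whose mean reached 1 TPM. In that fit 31.2% of the tested genes passed an adjusted p of 0.05 and 26.0% passed and were higher at E18.5. Of the 9 RNAs, 4 passed, all higher at E18.5: Malat1, Neat1, Gas5 and Snhg1. The median log2 fold change of all tested genes was 0.42, so a rise of this size was the middle of the table and not a change relative to other genes. With median-of-ratios scaling, which brings that median to 0.01, 6.44% of the tested genes passed and were higher, and of the 9 RNAs only Snhg1 did.

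Rescaling the TPM without the 9 RNAs gave a median of 0.44. Alb went from 13.025% ± 1.58 to 5.35% ± 2.09 of TPM (SD, n = 3 each). In limma it did not pass (log2 fold change -1.37, adjusted p = 0.146), nor with median-of-ratios scaling (-1.83, adjusted p = 0.495). Markers of several cell types moved with stage. The summed TPM of 12 hepatoblast markers was 164565 to 206940 at E16.5, then 37766 to 88892 at E18.5, with 8 lower (7 with median-of-ratios scaling). That of 10 cholangiocyte markers was 912 to 2800 and then 8561 to 14547, with 8 higher (4 with median-of-ratios scaling). That of 8 megakaryocyte markers was 3262 to 9453 and then 86.6 to 746, with all 8 lower under both scalings. Of 9 mesenchyme markers 2 were higher, 1 with median-of-ratios scaling (115 to 265, then 255 to 722 TPM summed). Of 9 leukocyte markers 3 were higher (97.3 to 135, then 110 to 251). With median-of-ratios scaling 0 leukocyte markers were higher and 1 was lower. Of 8 endothelial markers 1 was higher (95.5 to 158, then 98.7 to 195), 0 with median-of-ratios scaling. Of 9 erythroid markers 1 was lower under both scalings. Erythroid markers summed to 607 TPM in E18.5 B and to 113 to 319 TPM in the other 5 libraries. In E18.5 B the leukocyte sum (251 TPM) and the cholangiocyte sum (14547 TPM) were highest too, and the hepatoblast sum (37766 TPM) was lowest. The tested ribosomal RNA rows also peaked in that library, and a link to any of these lists was not tested. Pancreatic acinar markers, 2 lower of 7 tested (0 with median-of-ratios scaling), summed to 2537 TPM in E16.5 A and to 15.6 to 231 TPM in the others. No marker on these 8 lists was at 0 in every library. Their part in the stage differences of the noncoding RNAs was not tested, and in such bulk samples fewer cells of a type cannot be told apart from less RNA per cell. Recovered reads were 22643868 or fewer in each E18.5 library and 23193537 or more in each E16.5 library.

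**Figure D3:**
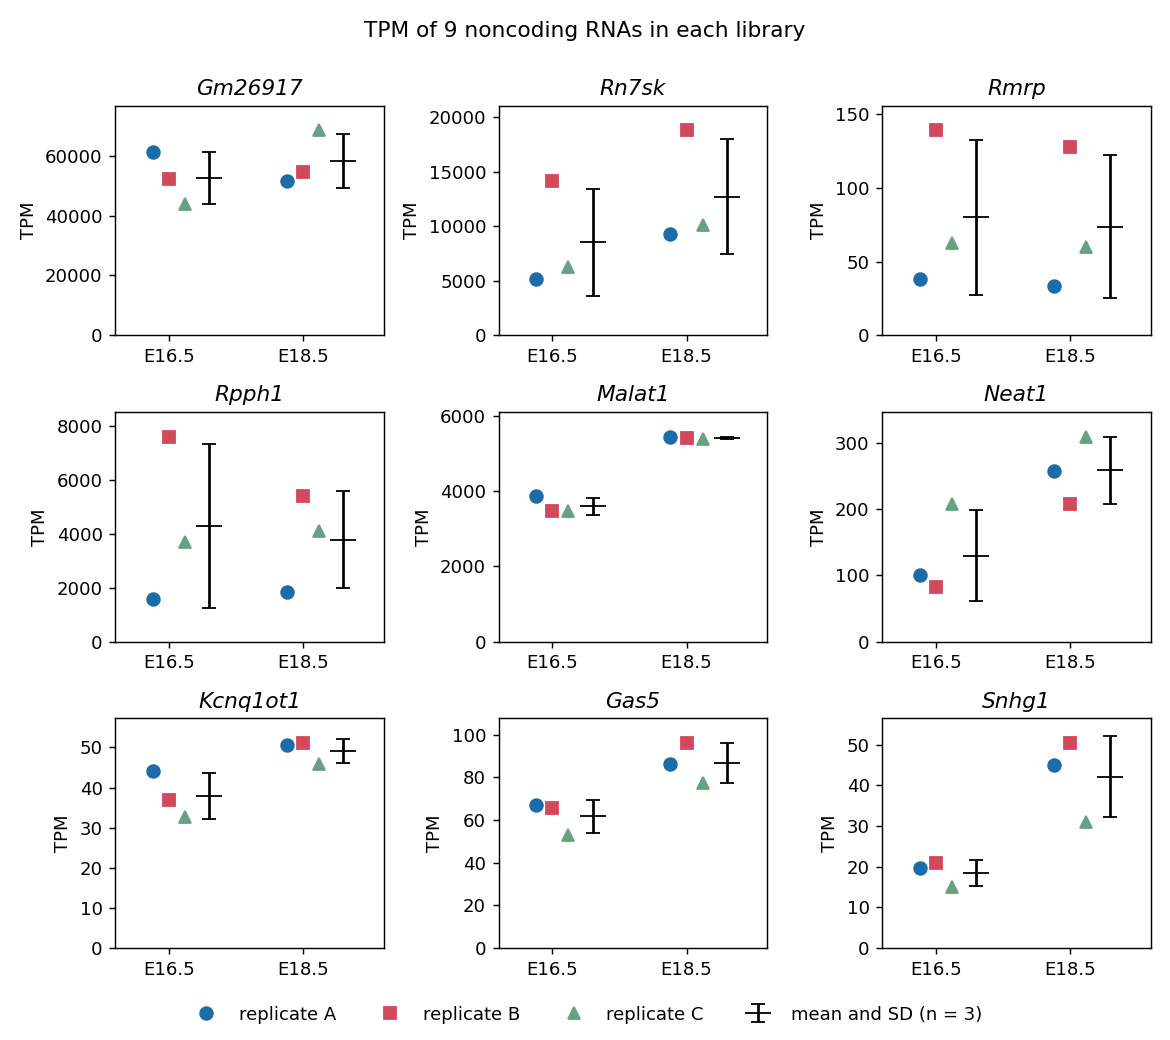
Each panel gives the TPM of one RNA on a linear axis from 0, with one point per library (circle A, square B, triangle C) and the mean and SD of the 3 libraries of a stage beside them. Malat1, Neat1, Kcnq1ot1, Gas5 and Snhg1 separate by stage, whereas in Rn7sk, Rmrp and Rpph1 the stages overlap and B is the highest at both.

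Snhg1 (chr19:8723475-8726443, plus strand, 2969 exon bases) had the lowest adjusted p of the 9 RNAs. It stood at 19.8, 20.9 and 14.9 TPM at E16.5, then at 45.0, 50.4 and 31.1 TPM at E18.5. The stages did not overlap, and the means were 18.52 ± 3.14 and 42.2 ± 9.96 TPM (SD, n = 3 each), a 2.28-fold rise. The log2 fold change was 1.13 (SE 0.22, adjusted p = 0.0145 in limma). It was 0.68 (adjusted p = 0.0362) with median-of-ratios scaling. Without E18.5 A, the adjusted p was 0.0603. Snhg1 rested on 354 to 914 reads a library.

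Gas5 (chr1:161034422-161038539, plus strand) carries snoRNAs as Snhg1 does. It stood at 67.0, 65.5 and 52.9 TPM at E16.5, then at 86.4, 96.1 and 77.5 TPM at E18.5, with no overlap. The log2 fold change was 0.48 (SE 0.14, adjusted p = 0.0390 in limma), close to the median of the table. With median-of-ratios scaling it was 0.02 (adjusted p = 0.863). The call held without E18.5 C (adjusted p = 0.0455) and was lost without each of the other 5 libraries, with adjusted p from 0.0637 to 0.107.

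Neither host could be read together with its snoRNAs. Within Gas5 lie 10 snoRNA genes and within Snhg1 lie 8, all of 60 to 126 bases and all at 0 in every library. They take 17.8% of the exon bases of Gas5 and 20.9% of those of Snhg1, since the annotated transcripts include ones that retain introns: 91.3% of the Gas5 span and 100% of the Snhg1 span counts as exon. Whether reads came from those introns was not measured. Of 15 tested genes in a list of other snoRNA hosts, 4 rose, 0 fell and 11 did not pass, with a median log2 fold change of 0.51 against 0.42 over all tested genes. Epb41l4aos was the most abundant and rose most, from 25.4 ± 7.09 to 73.1 ± 14.7 TPM (SD, n = 3 each, log2 fold change 1.505, adjusted p = 0.0106), and it was the only one of them to pass with median-of-ratios scaling. Snhg18 rose from 5.18 to 13.3 TPM (log2 fold change 1.26, adjusted p = 0.0207).

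Malat1 (chr19:5795690-5802672, minus strand, 6983 bases) ranked 12 of all genes by mean TPM. It stood at 3866, 3461 and 3465 TPM at E16.5, then at 5450, 5427 and 5397 TPM at E18.5. The E18.5 libraries differed by 1.01-fold and the stages did not overlap, with means of 3597 ± 232 and 5425 ± 26.4 TPM (SD, n = 3 each). The log2 fold change was 0.59 (SE 0.19, adjusted p = 0.0488 in limma). The fit draws the error of a gene towards that of genes of like level, and without that trend the adjusted p was 0.0286. The call was lost without any 1 of the 6 libraries (adjusted p from 0.0746 to 0.174), and the log2 fold change was 0.13 under median-of-ratios scaling (adjusted p = 0.755).

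The genes whose pattern lay nearest to Malat1 were protein-coding. They were Akap9, Gsk3a and Zfp212, with mean absolute differences of 0.019, 0.021 and 0.024 in centred log2(TPM + 1) over the 6 libraries. Akap9, for example, stood at 27.0 to 32.0 TPM at E16.5, then at 43.9 to 44.2 TPM at E18.5. For Gm26917 the nearest were Gm43275 (0.049), Rpia (0.049) and Exosc3 (0.053), all at 5.87 to 13.2 TPM in every library. These likenesses are chosen from 14372 genes and carry no test.

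Neat1 (chr19:5824708-5845478, minus strand, 20771 bases) lies beside Malat1 on the chromosome and was 16.7 to 42.4 times lower per length. It stood at 99.97, 81.7 and 208 TPM at E16.5, then at 257, 208 and 309 TPM at E18.5. E16.5 C, at 207.8 TPM, almost met E18.5 B, at 208.1 TPM, so the stages only just separated. The log2 fold change was 1.09 (SE 0.34, adjusted p = 0.0491 in limma). It was 1.48 (adjusted p = 0.0143) without E16.5 C, and the call was lost without each of the other 5 libraries, with adjusted p from 0.0833 to 0.123. The log2 fold change was 0.62 under median-of-ratios scaling (adjusted p = 0.355).

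RNA of the genes for paraspeckle proteins, which assemble on Neat1, was compared in the same fit, and protein was not measured. Of 12 tested, 6 rose, 0 fell and 6 did not pass, with a median log2 fold change of 0.35, below that of the table. Nono, a core paraspeckle protein and the most abundant of them, rose from 218 to 363 TPM (log2 fold change 0.73, adjusted p = 0.0224). Hnrnph3, a splicing regulator, rose from 18.9 to 39.8 TPM (1.04, adjusted p = 0.0144) and was the only one to pass with median-of-ratios scaling (0.59, adjusted p = 0.0349).

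Kcnq1ot1 (chr7:143203458-143296549, minus strand) is transcribed from within Kcnq1, on the opposite strand. Its length in the authors' annotation was not that of vM21: between 100 and 150000 bases, 84395 was the only length that gave whole reads in all 6 libraries, against 93092 bases in vM21. It stood at 44.0, 36.8 and 32.7 TPM at E16.5, then at 50.7, 51.1 and 45.8 TPM at E18.5. The stages did not overlap, but the log2 fold change of 0.38 (SE 0.14, adjusted p = 0.0761 in limma) did not pass, and with median-of-ratios scaling it was -0.08 (adjusted p = 0.587). Low as its TPM was, its length gave it 15683 to 31855 reads a library, more than Rpph1 in each.

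Genes of the imprinted domain around Kcnq1ot1 went in both directions. Of 9 tested, 3 rose, 1 fell and 5 did not pass. Osbpl5, a lipid transfer protein, rose from 8.93 to 21.7 TPM (log2 fold change 1.29, adjusted p = 0.0281), and Trpm5, a cation channel, from 1.09 to 2.99 TPM (0.94, adjusted p = 0.0405). Cdkn1c, a cell cycle inhibitor expressed from the maternal allele and the most abundant of the list, stood at 249 to 254 TPM at E16.5, then 155 to 221 TPM at E18.5 (-0.39, adjusted p = 0.0837). With median-of-ratios scaling 3 were lower, among them Cdkn1c (-0.85, adjusted p = 0.0336), and 0 higher. Osbpl5 (0.86, adjusted p = 0.0831) and Trpm5 (0.64, adjusted p = 0.129) thus did not pass with that scaling. TPM does not tell the parental alleles apart.

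Among the 9 RNAs the stages did not overlap in 5, against 53.3% of all tested genes. Gm26917, Rn7sk, Rmrp and Rpph1 had overlapping stages, and their log2 fold changes were 0.15 (SE 0.52), 0.64 (SE 0.48), -0.13 (SE 0.58) and -0.04 (SE 0.62), with adjusted p in limma of 0.832, 0.318, 0.876 and 0.961. Without the trend in the fit the SE of Gm26917 was 0.19.

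**Figure D4:**
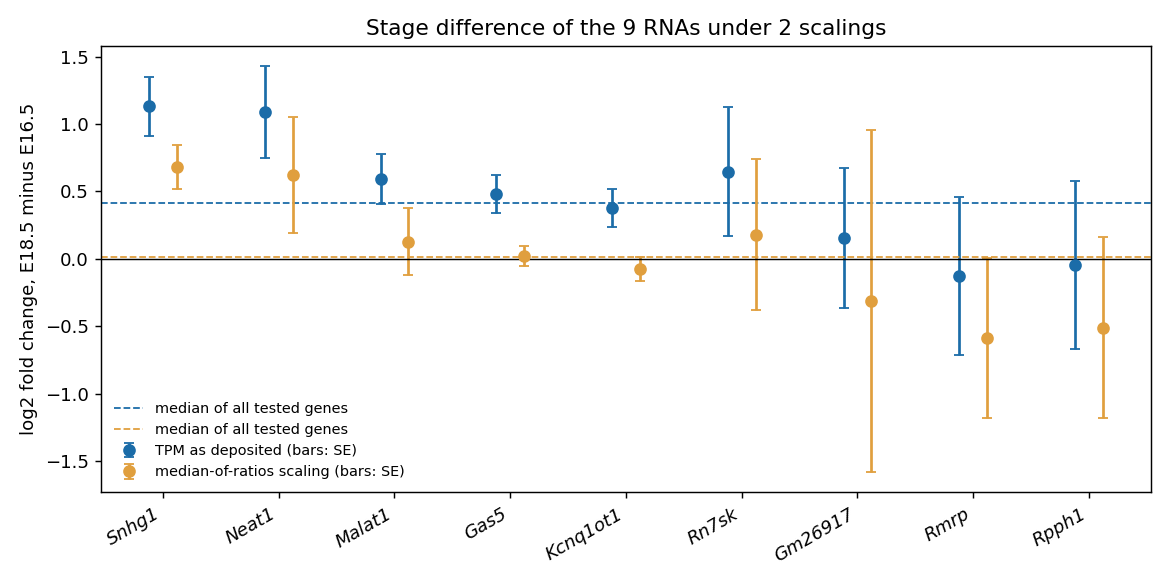
Points give the log2 fold change (E18.5 minus E16.5) of each RNA with its SE in the limma fit, on TPM as deposited and with median-of-ratios scaling, and the dashed lines give the median of all tested genes under each (0.42 and 0.01). Snhg1 and Neat1 lie above the median under both scalings, Malat1, Gas5 and Kcnq1ot1 lie near it, and the bars of the remaining 4 RNAs span a wide range.

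The genes for protein partners of the short RNAs did not have RNA in replicate B at least 2-fold above A at both stages. This held for the 10 tested genes for proteins of RNase P and RNase MRP. It also held for the 8 of the 7SK particle and P-TEFb and the 23 of the RNA polymerase III machinery. Nearly all protein-coding genes averaging 10 TPM or more lacked it too. It was found in 1 of 9374 with over 1000 exon bases and in 0 of 213 with 200 to 1000. Its absence is thus not particular to these partners. Of the genes for RNase P and MRP proteins 2 rose and 0 fell: Pop5 from 17.8 to 25.0 TPM (log2 fold change 0.48, adjusted p = 0.0409) and Rpp14, the most abundant, from 18.8 to 25.7 TPM (0.43, adjusted p = 0.0442). Their median was 0.39, against 0.42 over all tested genes, and none passed with median-of-ratios scaling.

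Of the genes for the 7SK particle and P-TEFb 3 rose, 1 fell and 4 did not pass. Hexim2, which with Hexim1 inhibits P-TEFb on 7SK, fell from 8.14 to 3.93 TPM (log2 fold change -0.94, adjusted p = 0.0457), also with median-of-ratios scaling (-1.33, adjusted p = 0.0261). Mepce, the enzyme that caps 7SK, rose from 35.3 to 53.1 TPM (0.59, adjusted p = 0.0405). That rise did not pass with median-of-ratios scaling.

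Of 23 genes of the RNA polymerase III machinery 9 rose and 0 fell, with a median of 0.47. Brf1, a subunit of its initiation factor TFIIIB, rose from 20.8 to 37.1 TPM (log2 fold change 0.80, adjusted p = 0.0110), Snapc3, a subunit of the complex that binds snRNA-type promoters, rose from 16.7 to 29.3 TPM (0.78, adjusted p = 0.0212), and Polr3a, the largest enzyme subunit and the most abundant of the list, did not pass (0.35, adjusted p = 0.105). Of 17 genes of RNA polymerase I and the nucleolus 8 rose and 0 fell, with a median of 0.50. Taf1a, a subunit of its selectivity factor, rose from 17.3 to 35.4 TPM (1.01, adjusted p = 0.0185) and Znrd1, a subunit of the enzyme, from 18.6 to 30.5 TPM (0.72, adjusted p = 0.0446). Npm1, the abundant nucleolar chaperone, went from 311 to 457 TPM without passing (0.55, adjusted p = 0.0725). With median-of-ratios scaling 0 genes of the first list and 1 of the second were called.

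Other long noncoding RNAs went in both directions. Of 19 tested, 7 rose, 4 fell and 8 did not pass, and with median-of-ratios scaling 1 was higher and 4 were lower. H19, an imprinted RNA abundant in fetal liver, was the most abundant, at 9028 to 10102 TPM at E16.5, then 7518 to 10481 TPM at E18.5 (log2 fold change -0.02, adjusted p = 0.953). Its mean over the 6 libraries, 9422 TPM, lay between those of Rn7sk (10629 TPM) and Malat1 (4511 TPM). At E16.5 alone the mean of H19 (9452 TPM) was above that of Rn7sk (8538 TPM). Mirg, a microRNA host of the imprinted Dlk1-Dio3 region, fell from 74.4 to 26.0 TPM (-1.48, adjusted p = 0.00424), also with median-of-ratios scaling (-1.94). Lncpint rose from 1.80 to 6.26 TPM (1.40, adjusted p = 0.0212), and with median-of-ratios scaling it did not pass (1.07, adjusted p = 0.0561). Of the small structural RNAs only Rnu1b2, a U1 small nuclear RNA gene of 165 bases with near-identical copies, passed, and it fell from 11.996 to 3.86 TPM (-1.42, adjusted p = 0.0249). Rnu1b2 is shorter than Rmrp and had a lower TPM in every library, so it rested on fewer reads than Rmrp did. Rnu1b1, a U1 gene of the same length, did not pass (0.27, adjusted p = 0.584).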

How the data were processed

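The authors used HISAT2 (genome GRCm38) for alignment and HTSeq with GENCODE vM15 for counting, and deposited a table of TPM for 52550 genes and 6 libraries, with all 6 columns used here. The submitters' processing notes give HISAT2 2.1.0 and HTSeq 0.5.4p3, and how multiply aligned reads were handled and which strand setting was used is not given in the sources used here. TPM divides by exon length, so short RNAs take larger shares of TPM than of reads. For this re-analysis, gene lengths and places came from a later release, GENCODE vM21, which holds 52403 of the identifiers. Reads were the product of TPM and exon length, over the value of 1 read. Among the 49035 genes with the same identifier version in vM21, they came out whole (within 0.01) for 100% of 180057 nonzero values. Recovered reads were summed over the 49583 genes whose reads came out whole in all 6 libraries, and totalled 13093937 to 26206374 a library.

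The stage comparison used limma 3.58.1 (R 4.3.3; trended eBayes) with log2(TPM + 1) of all genes averaging 1 TPM or more, and Benjamini-Hochberg correction. The pseudocount understates changes of low genes. Permutation tests and intervals came from scipy 1.17.1, and transcripts were aligned with BLAST+ 2.17.0. The fit was tested on simulated data with the same spread set for all genes. The changed genes were drawn from well-covered genes with at least 200 exon bases. No shift of the whole table between stages was simulated, so the calls among unchanged genes do not speak to such a shift. The fit called 99 of 100 genes changed 4-fold, 28 of 100 changed 2-fold and 21 of 20736 unchanged. A gene that did not pass may therefore still have changed. The 9 RNAs and all gene lists were chosen with earlier results of these data known. Besides the 9 RNAs, the text names from each list the most abundant tested gene and the 2 largest changes with adjusted p under 0.05, for Gm26917, Rn7sk and Malat1 the 3 genes of nearest pattern, and genes that overlap an RNA. Rn7s1, Rprl3 and CT010467.1 were named after their values were seen. Alternatives were other scalings, filters, pseudocounts and error models, voom on recovered reads, the replicate block and leaving out each library. The result of 1 gene that the rule names is not reported here.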

Additional observations from a re-analysis of the deposited data

How the results depend on the processing

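The count of genes changed between the stages, 7000 with TPM as deposited, was 4282 with no filter on low values, 3795 with median-of-ratios scaling and 3796 with quantile normalization, and 1148 to 5432 when 1 library was left out, lowest without E18.5 A. The share of calls that were higher at E18.5 was 83.3% as deposited and 38.1% with median-of-ratios scaling. Of the 4 RNAs called, Snhg1 kept its call in 17 of 18 alternatives, Gas5 in 8, Malat1 in 7 and Neat1 in 6, and none changed direction. Kcnq1ot1 passed in 1 of 17, with TPM rescaled over protein-coding genes (log2 fold change 0.47, adjusted p = 0.0487), and no voom value could be made for it because its length differs. Directions that turned were all of uncalled differences: with median-of-ratios scaling Gm26917 was at -0.31 and Kcnq1ot1 at -0.078, Rpph1 was at 0.14 with quantile normalization and 0.046 with TPM rescaled over protein-coding genes, and Rmrp and Rpph1 were at 0.37 and 0.51 without E16.5 B and at 0.33 and 0.41 without E18.5 A. With 1 library left out Rmrp ranged from -0.62 to 0.37 and Rpph1 from -0.62 to 0.51. The cause was not tested. The difference in the TPM share of the 9 RNAs was 0.574 to 1.75 percentage points when 1 library was left out and kept its sign. The replicate block, with letters as blocks, gave 7314 calls, and Malat1 then had an adjusted p of 0.0545. Deviations from the stage means of libraries with the same letter correlated at -0.04 (A), 0.08 (B) and 0.14 (C), and not every library correlated best with its own letter, so the letters were not taken to pair the libraries.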
